A study of Arabidopsis thaliana with 6 samples.

Results

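The genes described here lie together on the long arm of chromosome 5 of Arabidopsis thaliana and had more than 2-fold higher transcript levels in rosettes of a double mutant than in wild-type rosettes. They were taken from the interval between the loci AT5G40450 and AT5G55000. A gene was counted as a member if its probe set named only that gene, had a mean log2 value over the 6 arrays at or above a fixed floor, close to the array medians, and differed by at least 1.2 between the genotype means, which is 2.3-fold; the defensin gene PDF1.2 (AT5G44420) was left out by name. These conditions were met by 65 genes, out of 392 genes of the interval at or above this floor, 753 measured genes of the interval and 13286 measured genes in all. A gene is called measured here if a probe set names it alone in the array's annotation and matches the gene table. Of 22746 probe sets, 8730 carry no gene name in that annotation, so other genes may still be on the array. Of the interval's 1602 protein-coding genes, 745 were measured in this sense. The choice used the difference between the genotypes, so the differences of the members are given as a description and without a test. The interval itself was also found from these arrays.

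The double mutant, at3g03940/at518190 -/- in the labels, is described there as a knockdown of AT3G03940 and of a second locus whose name lacks a digit in the labels and was read as AT5G18190. The wild type was Columbia-0 (Col0). Both genotypes were grown in pots for 21 days with 12 h of light and were well watered, and total RNA of rosette leaves was hybridised to Affymetrix arrays, with 3 arrays per genotype. Whether plants were pooled, whether replicates were separate plants and how many lines the double mutant stands for is stated nowhere in the labels, so p-values measure only the spread between these samples. Rosettes hold many cell types, and in such bulk RNA fewer cells of a type and less RNA per cell cannot be told apart.

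AT3G03940 and AT5G18190 encode MLK-type protein kinases, a family studied for the phosphorylation of histone H3 at threonine near centromeres. In a diploid plant, neighbouring genes are mostly transcribed one by one, each from its own promoter, and a gene's transcript level is set by its number of copies, its rate of transcription and the stability of the RNA. Genes that lie side by side in Arabidopsis usually have unrelated functions, apart from tandem copies of 1 gene. The members are therefore a set defined by place and by size of difference, and their products belong to many processes. The tables used here give a symbol for 11 of the 65 members and the locus alone for 54. What the products of the other loci are is stated below as general background on Arabidopsis genes, and only where it is well established.

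The array medians ran from 5.81 to 5.90 on the log2 scale. Correlations between arrays, taken across probe sets, were 0.9932 to 0.9976 within the genotypes and 0.9672 to 0.9695 between them. The targeted gene AT5G18190, which lies on chromosome 5 outside the interval, read 3.42, 3.57 and 3.36 in the double mutant and 7.92, 7.74 and 7.63 in the wild type. No values are given here for AT3G03940, the other targeted gene. The array's 25S ribosomal RNA control, outside the tests, averaged 12.20 ± 0.12 in the double mutant and 5.93 ± 0.76 in the wild type (SD, n = 3 each); whether this has a part in the members' differences was not tested. Of 27 tissue markers 5 were measured in the sense given above, and the others were not examined. RCA, the Rubisco activase of green leaf cells, was among the brightest genes, with 13.54 ± 0.03 in the double mutant and 12.94 ± 0.05 in the wild type (SD, n = 3 each), and the shoot meristem marker CLV3 was at 3.37 ± 0.23 in the double mutant and 3.42 ± 0.13 in the wild type. The guard cell marker FMA averaged 7.26 in the double mutant and 7.43 in the wild type, the trichome marker TRY 3.94 in the double mutant and 4.14 in the wild type, and PYK10, listed as a root marker, 11.82 in the double mutant and 11.31 in the wild type; their part in the members' differences was not tested.

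The members were higher in the double mutant by 1.21 to 3.46 on the log2 scale, with a median of 1.45 or 2.73-fold and quartiles of 1.34 and 1.60. Most were close to the lower limit: 41 differed by less than 1.5, 19 by 1.5 to 2 and 5 by more than 2. The other 327 interval genes at or above the floor had a median difference of 0.74, or 1.67-fold, and the 5410 nuclear genes outside the interval at or above it had a median of -0.04. A difference of 1.2 or more was seen in 124 of those 5410 genes, which is 2.29%. With PDF1.2 included it was seen in 66 of the 392 interval genes, which is 16.8%; both shares use the contrast that defined the members. The distribution inside the interval was not cut at an empty place. It held 72 genes between 1.0 and 1.2, 27 between 1.2 and 1.4 and 22 between 1.4 and 1.6.

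**Figure D1:**
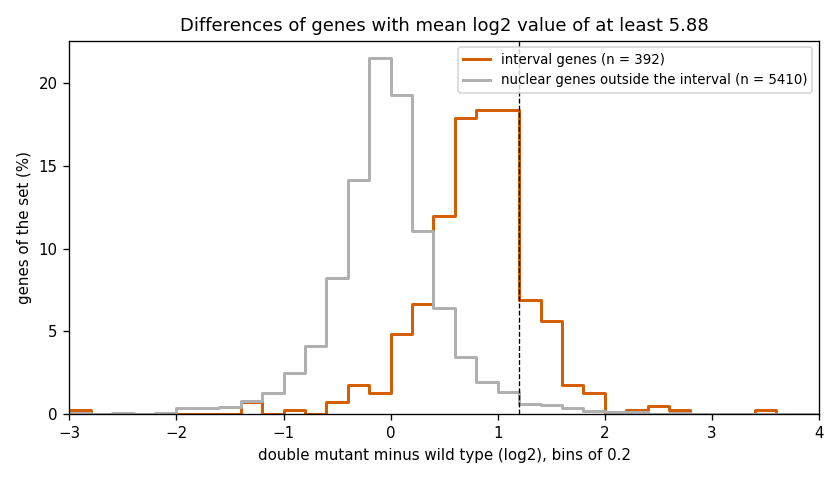
Share of genes (%) by difference between double mutant and wild type (log2, bins of 0.2), for 392 interval genes and 5410 nuclear genes outside it, all at or above the floor on mean level. The dashed line marks the limit of 1.2, and the members lie to its right in the shoulder of a distribution that is shifted upward in its bulk. Its lower tail is not, with 4 interval genes at or below -1.2.

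The difference was seen on each array. Against the wild-type mean, the median over the members was 1.44, 1.46 and 1.44 in the 3 double mutant arrays. For each member the 3 values average to the difference that the rule used, so these medians are set in part by the choice. The lowest member stood at 1.12, 1.09 and 0.79 on these arrays, and 54 members reached 1.2 on all of them. Set against the mean of the other wild-type arrays, each wild-type array had a median over the members of -0.04, 0.03 and 0.04, and none reached 1.2 for any member. In all 65 members every double mutant array lay above every wild-type array, and limma called all 65 higher; since the members were chosen on this contrast, these counts carry no information beyond the rule. Over all probe sets 25.1% had arrays that did not overlap in this direction, 38.5% were called in either direction and 19.8% were called higher; of the measured interval genes 59.9% were called higher. The gap between the lowest double mutant array and the highest wild-type array had a median of 1.22 and ran from 0.56, in AT5G41140, to 3.11. In AT5G41140 double mutant array 3 read 6.08 while the other 2 read 6.77 and 6.76.

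**Figure D2:**
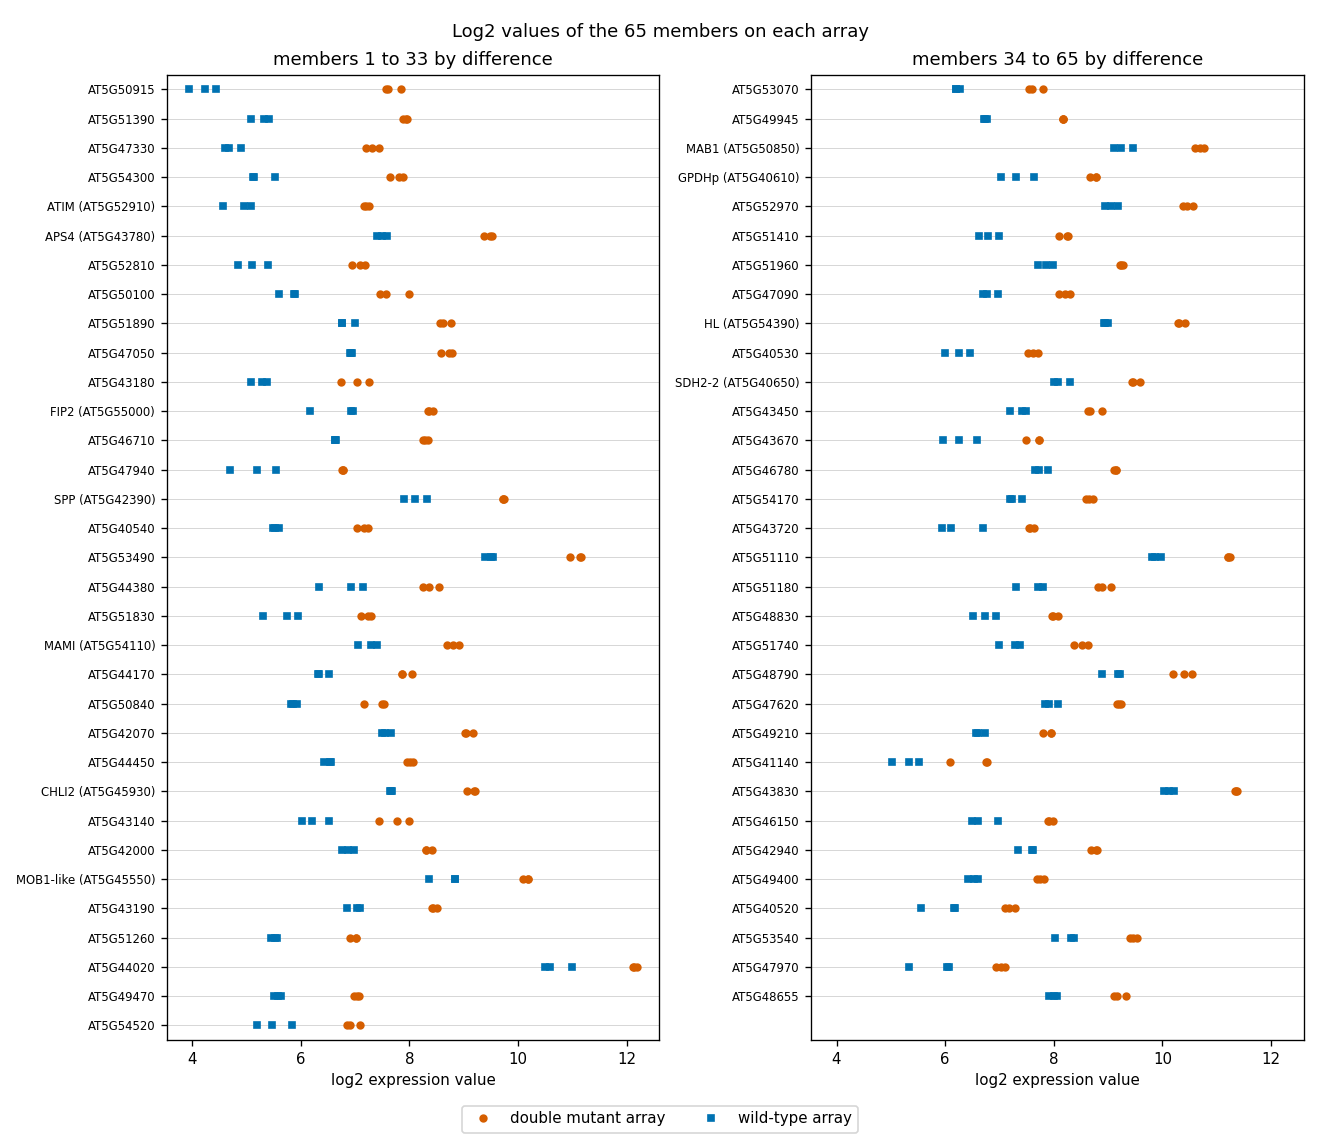
Log2 value of each member on each array, with members ordered by difference from the top of the left panel. Circles are the 3 double mutant arrays and squares the 3 wild-type arrays; the groups are separate in all 65 members, least in AT5G41140.

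Transcript levels of the members were spread over the measured range. Their means ran from 6.54 to 12.15 in the double mutant, with a median of 8.30, and from 4.22 to 10.70 in the wild type, with a median of 6.80. The median over the other 327 interval genes was 8.04 in the double mutant and 7.37 in the wild type, a description that the rule shapes in part. No member was near the background in the wild type, that is, below the lower quartile of each array, which was 3.71 to 3.79. The floor all but fixes this count, since such a gene would pass it only with a larger difference than any member had. AT5G42280, at 5.73 in the double mutant and 3.31 in the wild type, was left out by the floor. For 17 members the wild-type mean was below the floor, so that they entered the set through their level in the double mutant. The typical SD between arrays of 1 genotype was 0.14 for the members and 0.12 for the other interval genes.

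The member with the largest difference was AT5G50915, which encodes a transcription factor of the basic helix-loop-helix (bHLH) family. It read 7.57, 7.61 and 7.85 in the double mutant and 4.24, 3.95 and 4.45 in the wild type, a difference of 3.46 or 11-fold. Its wild-type arrays were the lowest of any member, not far above the lower quartile. AT5G51390, whose product is uncharacterised, read 7.94, 7.95 and 7.89 in the double mutant and 5.41, 5.09 and 5.33 in the wild type, a difference of 2.65. AT5G47330, of the alpha/beta hydrolase superfamily, read 7.44, 7.32 and 7.21 in the double mutant and 4.61, 4.91 and 4.68 in the wild type, a difference of 2.59. AT5G54300 read 7.81, 7.88 and 7.64 in the double mutant and 5.14, 5.13 and 5.53 in the wild type, a difference of 2.51. These genes had wild-type means of 5.28 or less and double mutant means between 7.32 and 7.93. At such wild-type levels the floor admits only genes that are high in the double mutant, so this range is shaped in part by the rule. ATIM (AT5G52910) is the Arabidopsis counterpart of TIMELESS, a protein that stabilises stalled replication forks in animals and yeast. It read 7.20, 7.16 and 7.26 in the double mutant and 4.57, 4.95 and 5.08 in the wild type, a difference of 2.34. These 5 genes stood apart from the next member, which differed by 1.96. Their wild-type means were all below the floor, so they entered the set through their level in the double mutant. Rises of similar size, 2.64 in AT5G48570, 2.56 in AT5G44390 and 2.42 in AT5G42280, were left out by the floor.

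Among the 8 members that act on DNA, RNA or transcription, the differences ran from 1.23 to 3.46 with a median of 1.42. After the bHLH gene and ATIM came AT5G46710, of the plant-specific PLATZ family of zinc-binding proteins, with 8.26, 8.29 and 8.35 in the double mutant and 6.64, 6.63 and 6.65 in the wild type. Its arrays lay close together within each genotype. AT5G46780, whose product has the VQ motif of partners of WRKY factors, was at 9.13 ± 0.02 in the double mutant and 7.76 ± 0.12 in the wild type (SD, n = 3 each). AT5G51410, of the LUC7 family of splicing factors, differed by 1.40, and AT5G47620, an RNA-binding protein gene, by 1.26. The remaining genes of this group were AT5G53070, for a ribosomal protein of the L9 type, with 1.43, and AT5G49400, for a zinc knuckle protein, with 1.23.

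The 5 members grouped under chloroplast and photosynthesis were among the brighter ones, with means of 9.15 to 11.22 in the double mutant and 7.67 to 9.89 in the wild type. The plastid enzyme gene GPDHp, grouped with carbon metabolism, was lower, at 8.74 in the double mutant and 7.33 in the wild type. SPP (AT5G42390) encodes the stromal processing peptidase, which removes the transit peptide of proteins imported into the chloroplast. It read 9.73, 9.73 and 9.74 in the double mutant and 8.11, 7.91 and 8.33 in the wild type, a difference of 1.62. CHLI2 (AT5G45930) encodes a subunit of magnesium chelatase, the enzyme that puts magnesium into the porphyrin ring on the way to chlorophyll. It read 9.06, 9.21 and 9.19 in the double mutant and 7.69, 7.67 and 7.64 in the wild type, a difference of 1.49. Both AT5G53490 and AT5G52970 encode proteins of the thylakoid lumen and differed by 1.60 and 1.41. AT5G51110, for a protein of the pterin dehydratase type that takes part in Rubisco assembly, was at 11.22 ± 0.02 in the double mutant and 9.89 ± 0.08 in the wild type (SD, n = 3 each).

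Sulfur metabolism gave 2 members. APS4 (AT5G43780) is an ATP sulfurylase, the enzyme that activates sulfate for its reduction in the plastid. It read 9.52, 9.37 and 9.48 in the double mutant and 7.40, 7.59 and 7.50 in the wild type, a difference of 1.96 or 3.89-fold. HL (AT5G54390), a HAL2-like nucleotidase that acts on the phosphonucleotide left over from sulfation reactions, read 10.29, 10.41 and 10.31 in the double mutant and 8.99, 8.93 and 8.94 in the wild type, a difference of 1.39. In both genes the spread within a genotype was small beside the distance between the genotypes.

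Of 6 members of mitochondrial, peroxisomal and carbon metabolism, MAB1 was the brightest. MAB1 (AT5G50850) encodes the beta subunit of the E1 part of mitochondrial pyruvate dehydrogenase, which feeds the citric acid cycle. It read 10.59, 10.69 and 10.76 in the double mutant and 9.45, 9.10 and 9.24 in the wild type. SDH2-2 (AT5G40650), for the iron-sulfur subunit of succinate dehydrogenase, read 9.44, 9.58 and 9.46 in the double mutant and 8.01, 8.29 and 8.08 in the wild type. Their differences of 1.42 and 1.37 were close to the median of the set. GPDHp (AT5G40610), a plastid glycerol-3-phosphate dehydrogenase of lipid synthesis, differed by 1.41, and the fructokinase gene AT5G51830 by 1.55. AT5G51740, for a metallopeptidase of the OMA1 type of the mitochondrial inner membrane, differed by 1.29, and AT5G43140, of the PMP22 family of membrane proteins, by 1.48.

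Enzymes of redox chemistry, defence and the cell wall made up 7 members with differences of 1.37 to 1.95. AT5G52810, known as SARD4, encodes a reductase of pipecolic acid synthesis, a step in systemic immunity. It read 7.09, 7.18 and 6.94 in the double mutant and 4.85, 5.39 and 5.11 in the wild type, a difference of 1.95. AT5G51890, a peroxidase gene of the class secreted to the cell wall, was at 8.65 ± 0.10 in the double mutant and 6.84 ± 0.14 in the wild type (SD, n = 3 each), a difference of 1.81. AT5G50100, of the DCC family of thiol-disulfide oxidoreductases, differed by 1.88, with 7.68 ± 0.28 in the double mutant and 5.80 ± 0.16 in the wild type (SD, n = 3 each) and double mutant array 1 above the other 2. AT5G44380, for an enzyme like the berberine bridge enzyme, differed by 1.58 and AT5G43450, for a 2-oxoglutarate-dependent dioxygenase, by 1.37. AT5G44020 and AT5G51260, both of the HAD-type acid phosphatases related to vegetative storage proteins, differed by 1.45 and 1.46 from very different levels. AT5G44020, the brightest member, was at 12.15 ± 0.03 in the double mutant and 10.70 ± 0.27 in the wild type, and AT5G51260 was at 6.98 ± 0.06 in the double mutant and 5.52 ± 0.05 in the wild type (SD, n = 3 each).

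Signalling and protein turnover were represented by 6 members. AT5G40540 and AT5G49470, known as RAF10, encode protein kinases and differed by 1.61 and 1.45. MOB1-like (AT5G45550), a coactivator of kinases of the Hippo type that acts in cell division and growth, read 10.18, 10.09 and 10.19 in the double mutant and 8.84, 8.37 and 8.85 in the wild type, a difference of 1.47. The F-box protein gene AT5G43190 differed by 1.46, and the RING finger genes AT5G42940 and AT5G48655, whose products are of the type that marks proteins with ubiquitin, by 1.23 and 1.21. Of 5 members for membranes and trafficking, FIP2 (AT5G55000), named for its binding to a formin, is the last locus of the interval. It read 8.35, 8.36 and 8.43 in the double mutant and 6.18, 6.97 and 6.92 in the wild type, a difference of 1.69, and wild-type array 1 was lower than the other 2. MAMI (AT5G54110), a membrane protein gene named for its induction by mannitol, an osmotic agent, differed by 1.55. AT5G42000, of the ORMDL regulators of sphingolipid synthesis, differed by 1.47, AT5G43670, for a SEC23 subunit of the COPII vesicle coat, by 1.37, and AT5G46150, of the LEM3/CDC50 family of lipid flippase subunits, by 1.24.

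The remaining 26 members were not placed in a group. Their differences ran from 1.21 to 2.65 with a median of 1.40, and their means from 6.54 to 11.36 in the double mutant and 4.73 to 10.12 in the wild type. Beside the genes named above they included AT5G47050, with 8.58, 8.74 and 8.78 in the double mutant and 6.92, 6.95 and 6.91 in the wild type. AT5G43180 differed by 1.76 and AT5G47940 by 1.63; in AT5G47940 the double mutant arrays read 6.77, 6.78 and 6.78 while the wild-type arrays spread from 4.70 to 5.55. The brightest of them was AT5G43830, of a family named after its YGL and LRDR motifs, at 11.36 ± 0.02 in the double mutant and 10.12 ± 0.09 in the wild type (SD, n = 3 each).

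The members were scattered over the whole interval. When its 392 genes at or above the floor were divided by gene order into 5 blocks of 78 or 79 genes, the blocks held 13, 12, 12, 16 and 12 members. The median difference of the members was 1.33 to 1.5 in the blocks, and that of the other genes 0.70 to 0.76. Genes that stood next to members without being members had a median of 0.72 (97 genes, of which 88 lay above 0), against 0.74 for the other non-members. The medians were close, but both describe non-members only. Genes that reached the limit for the difference were left out of both groups by the rule, apart from the defensin gene left out by name. The comparison therefore cannot show whether genes beside members shared the members' rise.

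**Figure D3:**
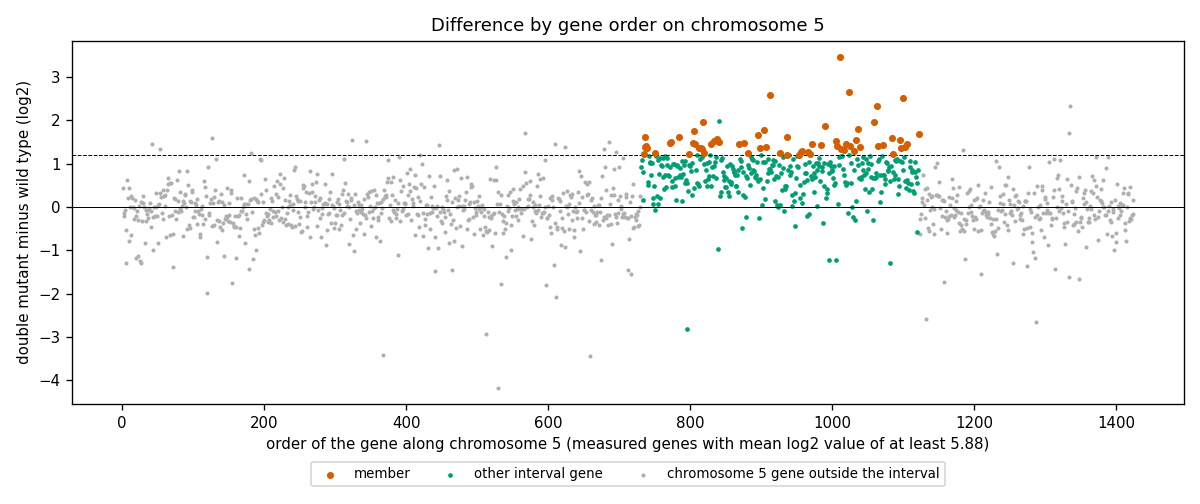
Difference between double mutant and wild type (log2) for measured genes of chromosome 5 at or above the floor on mean level, in gene order. The members lie above the dashed line at 1.2 and across the whole interval, with the 5 genes above 2 at separate places; the green point above the line is PDF1.2.

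A few members lay side by side. Among interval genes at or above the floor there were 6 pairs of adjacent members and 1 run of 5, which together held 17 members. Of the 6 pairs, only AT5G43180 with AT5G43190 and AT5G50840 with MAB1 were still adjacent among all measured genes. The other pairs had weaker measured genes between them. In the run of 5, AT5G40520, AT5G40530 and AT5G40540 were also consecutive among all measured genes. The pairs were AT5G43180 with AT5G43190 (1.76 and 1.46), AT5G43670 with AT5G43720 (1.37 and 1.34), AT5G47940 with AT5G47970 (1.63 and 1.21), AT5G48790 with AT5G48830 (1.28 and 1.29), AT5G50840 with MAB1 (1.53 and 1.42) and MAMI with AT5G54170 (1.55 and 1.37). The run of 5 lies near the start of the interval and is made up of AT5G40520, AT5G40530, the kinase gene AT5G40540, GPDHp and SDH2-2, with differences of 1.22, 1.38, 1.61, 1.41 and 1.37. Between them lie 5 weaker genes, of which AT5G40590 and AT5G40600 differed by 1.08 and 1.55 and AT5G40630, AT5G40640 and AT5G40645 by 0.08, 0.30 and -0.11. Further along, and singled out after their values were seen, the consecutive measured genes AT5G51380, AT5G51390, AT5G51400 and AT5G51410 differed by 1.58, 2.65, 1.199 and 1.40. The longest stretch without a member held 27 genes, from AT5G44500 to AT5G45510. All 27 lay above 0, with differences of 0.26 to 1.14 and a median of 0.67.

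Several genes missed the set narrowly or through the floor. The 5 genes just below the limit were AT5G51400, ETFBETA (AT5G43430), AT5G48220, AT5G44000 and AT5G46850, with differences of 1.199, 1.199, 1.197, 1.195 and 1.195. The 5 just above it were AT5G47970, AT5G48655, AT5G40520, AT5G53540 and AT5G42940, with 1.21, 1.21, 1.22, 1.22 and 1.23. Of 361 interval genes below the floor, 18 reached the difference. The largest of these was AT5G48570, for an FK506-binding cochaperone of the heat response, with 6.59, 6.46 and 6.49 in the double mutant and 3.69, 4.09 and 3.85 in the wild type, a difference of 2.64. AT5G44390, the next measured locus after the berberine bridge enzyme-like member AT5G44380 and of the same family, differed by 2.56, with 6.70 ± 0.09 in the double mutant and 4.14 ± 0.27 in the wild type (SD, n = 3 each). The other measured genes of this family beside them were not high: AT5G44400, at 7.08 in the double mutant and 8.05 in the wild type, differed by -0.97, and the weaker AT5G44360, AT5G44410 and AT5G44440 by -0.19, -0.25 and -1.202. Neighbouring genes of 1 family thus differed in both directions. AT5G51440, for a mitochondrial small heat shock protein, differed by 1.40. PDF1.2, left out by name, differed by 1.99.

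Each member had 1 probe set on the array that names it alone, so none could be followed on a second one. For 2 further genes a probe set met the limits while the brighter one did not, and these genes were not counted. AT5G50740, for a heavy metal-associated domain protein, differed by 1.45 on the dimmer probe set and 0.55 on the brighter. AT5G52580, for a RabGAP/TBC domain protein, differed by 1.495 on the dimmer probe set and 0.998 on the brighter. A difference of one probe set can thus stand well apart from that of another for the same gene. None of the members' probe sets carries a suffix that marks probes shared between genes.

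Genes related to the members but located elsewhere in the genome were then examined, since the rule did not use their values. For 18 members, 54 relatives or subunits of the same complex were listed, and 37 of them, for 15 members, were measured. The list was drawn up after the members were known, and the values of 9 of the 37 genes had been seen when it was completed, so it is no independent sample of relatives. Of the 37 genes, 3 were higher, 6 were lower and 28 did not pass the test at a limma adjusted p of 0.05. Over all measured genes 34.9% were called, 17.8% higher and 17.1% lower. The median difference of the 37 genes was -0.07, against 1.42 for their 15 members, which were chosen for being high. No relative reached 1.2, and 12 of the 37 had a mean below the floor. The difference between members and relatives was not tested.

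**Figure D4:**
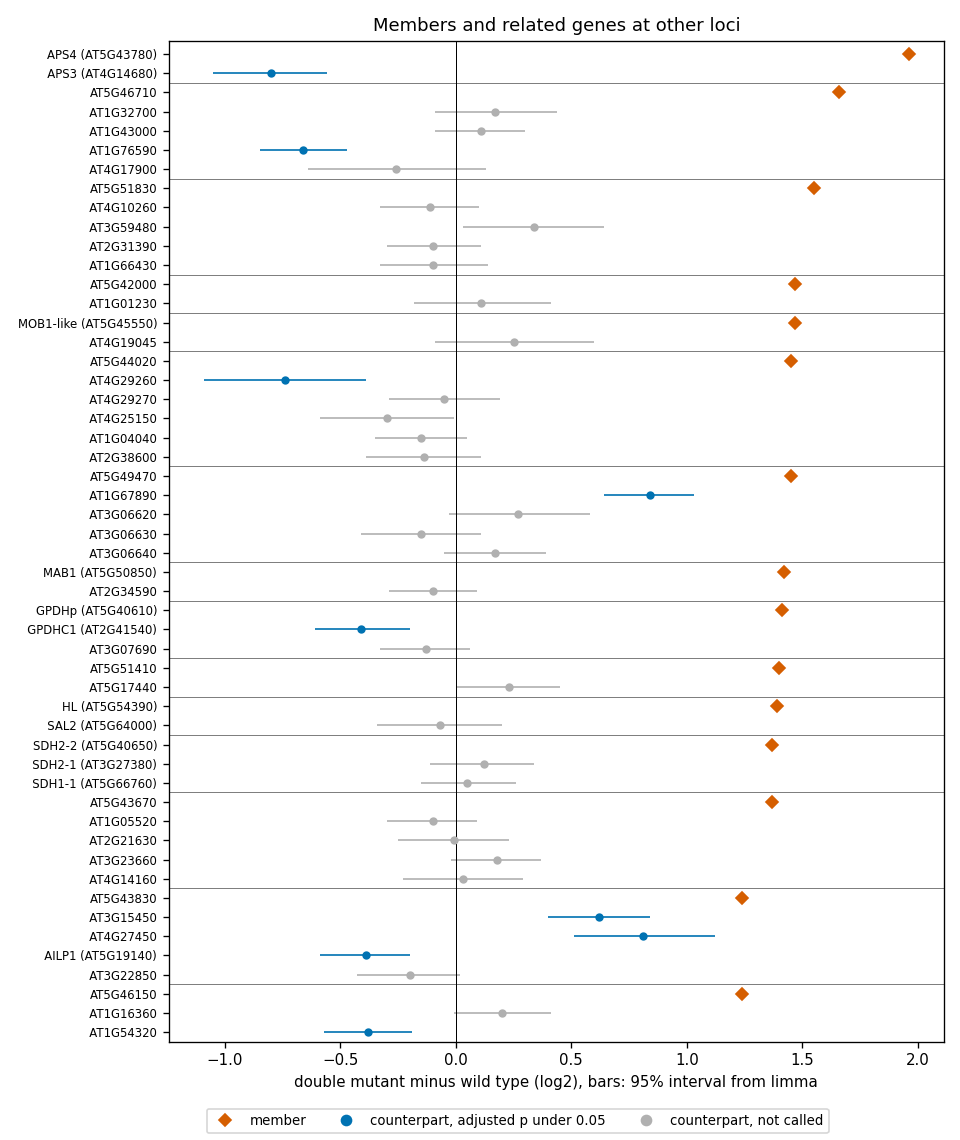
Difference between double mutant and wild type (log2) of 15 members (diamonds) and of 37 related genes at other loci (circles, with 95% intervals from limma), grouped by member. The related genes lie between -0.80 and 0.84, all to the left of their members.

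APS3, another ATP sulfurylase, moved opposite to APS4. It read 7.64, 7.48 and 7.65 in the double mutant and 8.27, 8.61 and 8.31 in the wild type, a difference of -0.80 (SE 0.11, limma adjusted p = 0.00016). SDH2-1, the other measured iron-sulfur subunit gene of succinate dehydrogenase, differed by 0.12 (95% interval -0.11 to 0.34), and SDH1-1, for the flavoprotein subunit, by 0.05 (95% interval -0.15 to 0.26). GPDHC1, a cytosolic glycerol-3-phosphate dehydrogenase, was lower, with 7.26, 7.28 and 7.22 in the double mutant and 7.75, 7.52 and 7.71 in the wild type, a difference of -0.41 (SE 0.09, limma adjusted p = 0.0052). AT2G34590, for a plastid E1 beta subunit of pyruvate dehydrogenase, differed by -0.10 (95% interval -0.29 to 0.09). AT1G01230, the measured relative of the ORMDL member, differed by 0.11 (95% interval -0.18 to 0.41). None of the 4 measured SEC23 genes elsewhere passed the test, with differences from -0.10 to 0.18.

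The other relatives that passed the test went both ways. In the family of AT5G43830, AT3G15450 and AT4G27450 were higher, by 0.62 (SE 0.10) and 0.81 (SE 0.14), while AILP1 was lower, by -0.39 (SE 0.09). AT1G67890, a kinase related to RAF10, was higher by 0.84 (SE 0.09, limma adjusted p = 2.5e-05), and 3 further relatives of RAF10 did not pass. AT4G29260, an acid phosphatase relative, was lower by -0.74 (SE 0.16), and 4 others of that family did not pass. AT1G76590, a PLATZ gene, was lower by -0.66 (SE 0.09, limma adjusted p = 0.00012), and AT1G54320, a LEM3/CDC50 gene, by -0.38 (SE 0.08). In each of these genes the 3 double mutant arrays were all on one side of the wild-type arrays. An exact permutation test of 3 arrays against 3 gave p = 0.1 for each of the 9 genes, the smallest p this design allows.

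Lists of stress, hormone and photosynthesis genes named no member. Of 143 genes on 10 lists, 18 were measured, 6 of them inside the interval. Among the 12 outside it, 5 were higher, 4 were lower and 3 did not pass in the limma fit. Over all measured genes 17.8% were called higher and 17.1% lower, and no set test was run. BIK1, an immune receptor-associated kinase, was higher by 1.48, and SAG101, an immune lipase-like protein gene, by 0.36, a call lost without double mutant array 1 (limma adjusted p = 0.072) or wild-type array 3 (0.059), whereas the receptor gene EFR did not pass with -0.05. PORB, a protochlorophyllide oxidoreductase that acts after magnesium chelatase in chlorophyll synthesis, was lower by -1.40, and RCA was higher by 0.60. Of the auxin genes IAA29 and WES1 were lower, by -1.08 and -0.81, and GH3.3 was higher by 0.77. LTI30 of the drought list was higher by 0.66 and COR47 did not pass with 0.05. BZIP53 of the energy list was lower by -0.29, a call lost without any one double mutant array or without wild-type array 3 (limma adjusted p of 0.057 to 0.066) and with the replicate number as a block (0.051), and JMT of the jasmonate list did not pass with -0.14. The 6 list genes inside the interval differed by 0.49 to 2.64: beside the heat response genes named above, these were HAT2 with 0.97, DFR with 0.76, LIL3:2 with 0.59 and the triterpene cluster gene AT5G47980 with 0.49. No housekeeping gene of the lists was measured in the sense given above. List genes that were not measured may lie on probe sets without a gene name. They could not become members, and their values were not examined.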

How the data were processed

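The authors deposited 1 log2 value per probe set and array, made with RMA; R 2.9.0, RMA and limma are named in the submitters' processing notes. RMA subtracts background, gives the arrays a common distribution and summarises probes, and it compresses the differences of weak genes. The authors' deposited table of the genotype comparison also holds p-values and scores (a moderated statistic and log odds). It entered no test, and its log2 differences matched the recomputed ones to within 6.7e-09. Read depth does not apply to arrays; their number sets the precision.

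Control probe sets (64 of 22810) were left out. In the array's annotation 13513 of the other 22746 name 1 gene, 503 name several and 8730 none; 13436 matched RefSeq's TAIR10.1 gene table, for 13286 genes. The probe set of highest mean stood for each gene, and the floor and the limit of 1.2 were then applied. Without a stated build, gene order was used and no coordinates. All 22746 probe sets were fitted with limma 3.58.1 in R 4.3.3, using lmFit and eBayes with genotype alone (two-sided; 10.6 total degrees of freedom; Benjamini-Hochberg adjusted p under 0.05). In data simulated for 22746 probe sets of the double mutant and wild type, 89.3% of changes of 1.2 and 50.7% of changes of 0.6 were recovered. The simulation changed far fewer probe sets than were called in the real data, so these rates do not give the recovery in the real fit. Deviations of same-numbered arrays correlated at -0.08, -0.10 and -0.16, so replicate numbers were not used as pairs.

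The members and lists were chosen with earlier results of these data known. Role groups were read after the values were known. The related genes were listed after the member names were known, and for 9 of the 37 measured ones the values had been seen when the list was completed; the others were added before their values were seen. Named genes are the 20 largest differences, the 5 nearest to the limit on each side, runs of 3 or more adjacent members and called list genes outside the interval; other genes illustrate a role and were chosen after their values were seen. Alternatives changed the limits, the probe set per gene, the centring, the replicate block and the arrays used. A planned search of promoter motifs was not run, since no sequences were used here. Plots and summaries were made in Python 3.11.15 with matplotlib 3.10.9, pandas 2.3.3, numpy 2.4.6 and scipy 1.17.1.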

Additional observations from a re-analysis of the deposited data

Results flagged for a closer look

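The array's 25S ribosomal RNA control is not among the tested probe sets, and its signal differed between the genotypes by 6.26 on the log2 scale. It read 12.19, 12.08 and 12.32 in the double mutant arrays and 5.45, 6.81 and 5.53 in the wild-type arrays.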

How the results depend on the processing

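The number of members depends mainly on the limit for the difference: 137 genes reached 1.0 and 24 reached 1.5, against 65 at 1.2. It was 68 and 52 with mean levels of at least 5.5 and 6.5, 67 with the dimmest probe set per gene and 63 when arrays were centred on nuclear genes outside the interval. Applying the limits before keeping 1 probe set per gene, an alternative added after the data were seen, gave 67. Leaving out 1 array at a time gave 60 to 75 genes, which shared 57 to 63 genes with the 65 members. The median difference of the members was 1.45 from the authors' deposited table, 1.43 with arrays centred, and 1.43 to 1.45 when 1 array was left out. None of the 65 members changed by more than its SD between arrays under any of 9 settings, but this was largely fixed in advance. Leaving out 1 of 3 arrays cannot move a difference by more than that SD. Each member had only 1 probe set, and the deposited differences matched the recomputed ones. The lowest difference of a member under these settings was 0.97. With the replicate number as a block, 8095 probe sets changed, against 8757 without it, and 474 interval genes, against 480, and 8 list genes outside the interval, against 9; the block changed the call of 1 related gene, the fructokinase AT3G59480. Leaving out 1 array gave 6985 to 8834 probe sets, 444 to 483 interval genes, 7 to 9 list genes outside the interval and 9 to 13 related genes. Of the list genes, 2 lost their calls in some settings: BZIP53 had a limma adjusted p of 0.051 with the block and 0.057 to 0.066 without any one double mutant array or without wild-type array 3, and SAG101 had 0.072 without double mutant array 1 and 0.059 without wild-type array 3. The 9 called related genes kept their calls in all settings run. When 1 array was left out, differences near 0 took either sign in 7 related genes that did not pass the test: they ran from -0.193 to 0.003 in SAL2, -0.001 to 0.085 in SDH1-1, -0.055 to 0.227 in AT1G01230, -0.093 to 0.074 in AT2G21630 (0.031 without wild-type array 2 or 3), -0.078 to 0.136 in AT4G14160 (-0.005 without double mutant array 2), -0.12 to 0.045 in AT4G29270 and -0.156 to 0.012 in AT1G66430; the cause was not tested.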
